A study of Mus musculus with 2 samples.

Results

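The distal ends of the mouse autosomes held 1617 of the 34675 autosomal regions in which a Control library of methylated DNA exceeded a Uhrf1 knockout library, and of 35861 such regions in all. A region was taken as distal when its start lay in the last 5 Mb of chromosomes 1 to 19 of mm10, the end away from the centromere, since mouse chromosomes carry the centromere at their first base. The remaining 33058 regions of the same chromosomes served as comparison. The libraries came from a Uhrf1 conditional knockout (cKO) and from Control mice, 1 library each, on a C57BL/6 background. Both were made from primary chondrocytes of knee cartilage at postnatal day 3 that had received recombinant human BMP-2 at 100 ng/ml for 24 hours. DNA was sheared, captured with the methyl-CpG-binding protein MBD2 and sequenced. The sources used here do not give the Cre driver, the floxed allele, the sex or the number of animals behind each library. No RNA was measured, so the labelled cell type could not be set against marker expression.

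Uhrf1 recognises hemimethylated CpG sites behind the replication fork and recruits the maintenance methyltransferase Dnmt1, so that cells lacking it lose DNA methylation as they divide. Subtelomeric DNA is the stretch next to the telomere repeats, and in mammals it is known for dense CpG methylation that depends on the DNA methyltransferases. In the mouse the proximal telomere sits beside the centromere, so that the distal end is the one that borders ordinary gene-bearing sequence.

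The cKO library held 15039206 kept tags of 19760028 (76.1%), and the Control library held 9782276 of 21831989 (44.8%). Each genotype has 1 library, so the genotype difference has no replicate check and no p-value was computed. All folds, tag counts and FDR values of single regions are the authors' own, from the authors' deposited table: the fold sets Control tags at the summit over the background expected there from the cKO library, the tag count is that of the Control library, and the FDR is a percent value of their caller. Every listed region is one with more Control signal, so the values describe where Control exceeded cKO and not the reverse. Intervals are 95% and cover counting error only.

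Few distal regions lay over a promoter, and the sequences that did so are shown because they carry the CpG sites MBD2 can bind. RefSeq promoter windows (250 bases before to 50 after a transcript start, GRCm38.p6, the assembly that mm10 is another name for) were matched on 18 autosomes. Of 1091 distal windows, 9 (0.825%, Wilson interval 0.435 to 1.56) overlapped a region by at least 1 bp, against 131 of 18994 (0.690%, 0.582 to 0.818) in the rest of these chromosomes. The distal windows under a region held a median of 11 CpG dinucleotides in 300 bases, against 16 in the other distal windows, with interquartile ranges of 7 to 12 and 5 to 28. In the rest, windows under a region held a median of 7 and the other windows 14. The motif searched was CG, which reads the same on both strands, and 95.6% of all 20085 windows held at least 1. The 5 windows below, each under a region with an FDR of at most 5%, are printed 5′ to 3′ on the gene's strand with every CG in capitals.
Pnlip: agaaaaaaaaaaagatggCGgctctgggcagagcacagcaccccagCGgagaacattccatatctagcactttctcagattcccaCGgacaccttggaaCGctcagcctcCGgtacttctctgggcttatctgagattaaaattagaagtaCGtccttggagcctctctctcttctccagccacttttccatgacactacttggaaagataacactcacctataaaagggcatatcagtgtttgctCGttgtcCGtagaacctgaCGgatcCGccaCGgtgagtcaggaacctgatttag
Ccdc172: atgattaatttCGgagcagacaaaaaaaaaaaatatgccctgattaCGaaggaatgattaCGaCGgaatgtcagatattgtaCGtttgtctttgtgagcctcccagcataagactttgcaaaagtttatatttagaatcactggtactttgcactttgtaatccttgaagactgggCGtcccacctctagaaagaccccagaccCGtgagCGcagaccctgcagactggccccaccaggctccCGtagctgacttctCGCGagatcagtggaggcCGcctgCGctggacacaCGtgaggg
Prkcz: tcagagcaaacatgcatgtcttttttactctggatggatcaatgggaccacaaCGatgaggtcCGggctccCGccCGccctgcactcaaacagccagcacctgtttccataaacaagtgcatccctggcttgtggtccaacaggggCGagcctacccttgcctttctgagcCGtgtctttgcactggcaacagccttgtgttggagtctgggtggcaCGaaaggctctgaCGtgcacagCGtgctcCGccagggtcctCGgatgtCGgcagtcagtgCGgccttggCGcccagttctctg
Fam186a: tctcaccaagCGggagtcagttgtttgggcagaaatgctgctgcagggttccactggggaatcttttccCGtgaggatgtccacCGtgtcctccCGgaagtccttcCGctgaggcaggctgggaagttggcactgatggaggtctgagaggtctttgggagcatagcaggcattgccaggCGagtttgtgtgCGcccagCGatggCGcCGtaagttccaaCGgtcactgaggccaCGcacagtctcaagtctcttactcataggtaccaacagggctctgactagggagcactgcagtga
Csrnp1: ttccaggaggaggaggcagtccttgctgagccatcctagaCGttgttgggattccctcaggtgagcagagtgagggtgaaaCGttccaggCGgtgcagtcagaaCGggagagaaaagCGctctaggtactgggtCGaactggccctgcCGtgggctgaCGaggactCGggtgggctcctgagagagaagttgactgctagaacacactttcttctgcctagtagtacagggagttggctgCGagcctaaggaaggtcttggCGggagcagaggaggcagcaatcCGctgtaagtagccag

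These 5 windows belonged to genes of unrelated roles. The Pnlip window (chr19:58670115-58670414, plus strand) precedes the gene of pancreatic lipase, held 11 CpG and lay wholly under a region with 194 Control tags at 49.45-fold. The Ccdc172 window (chr19:58511735-58512034, plus strand) held 14 CpG, and 284 of its 300 bases lay under a region with 117 tags at 25.55-fold. The Prkcz window (chr4:155344700-155344999, minus strand) held 14 CpG under a region with 188 tags at 15.41-fold. Prkcz encodes an atypical protein kinase C, and this window lies inside the annotated gene, at the start of a shorter transcript. The Fam186a window (chr15:99931609-99931908, minus strand) held 12 CpG under a region with 136 tags at 13.56-fold. Csrnp1 encodes a nuclear protein first named from an axin-induced gene, and 2 of its windows shared a region with 118 tags at 9.78-fold and an FDR of 4.01%. The one printed (chr9:119984394-119984693, minus strand) held 12 CpG. All 5 CpG numbers lay between the quartiles of the distal windows without a region.

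Summed over all autosomes, the last 5 Mb carried more regions per Mb than the rest, but not the stretch nearest the telomere. The distal 95 Mb held 17.02 regions per Mb (16.2 to 17.9) and the rest of the same chromosomes 14.3 (14.2 to 14.5), a ratio of 1.19 (1.13 to 1.25, exact conditional binomial interval). The unsequenced first 3 Mb of each chromosome were left out of the span. Against the other chromosome end, the 5 Mb that begin at 3 Mb with 12.9 regions per Mb and 1223 regions, the ratio was 1.32 (1.23 to 1.43). Distal regions together spanned 791 kb, or 0.833% of the distal sequence, against 0.682% of the rest.

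Within the last 5 Mb the density climbed steadily away from the end. The last 1 Mb held 9.79 regions per Mb (8.43 to 11.3), the next 12, then 16.5 and 20.53, and the stretch from 4 to 5 Mb held 26.3 (24.1 to 28.7). The climb ended near the limit, since each 1 Mb step from 5 to 10 Mb held 21.4 to 29.5 regions per Mb and each from 10 to 20 Mb 16.5 to 31.1. The last 1 Mb thus had 0.37 times the density of the stretch from 4 to 5 Mb (0.31 to 0.44). Protein-coding genes did not follow this course: they numbered 12.6 per Mb in the last 1 Mb and 11.4 per Mb from 4 to 5 Mb, a ratio of 1.11 (0.92 to 1.34). Regions per protein-coding gene were 0.775 in the last 1 Mb and 2.71 from 5 to 10 Mb. Single autosomes did not all share the pooled climb. From the end inwards, the median over autosomes was 7, 9, 17, 15 and 25 regions per 1 Mb window. On chromosomes 13, 17 and 18 the last 1 Mb was the fullest distal window, with 18, 17 and 5 regions.

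**Figure D1:**
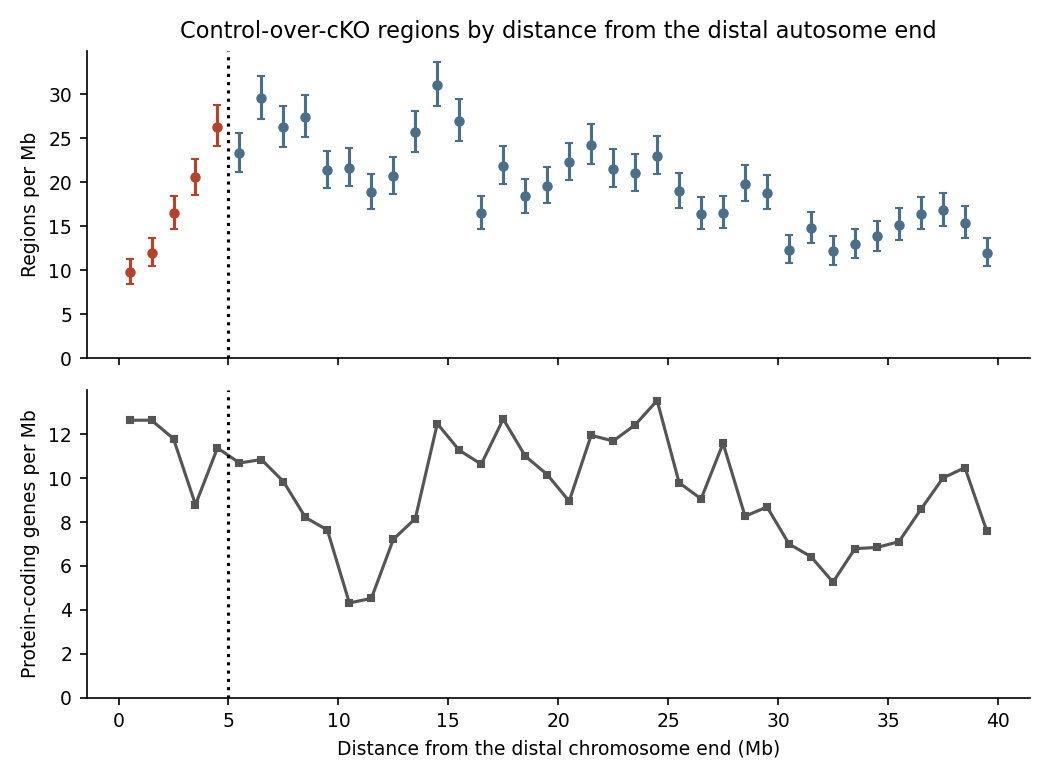
Regions per Mb (top, points with exact Poisson 95% intervals) and protein-coding genes per Mb (bottom) in 1 Mb steps from the distal end, summed over 19 autosomes; red points are the last 5 Mb and the dotted line is the 5 Mb limit. Region density is lowest at the end, 9.79 per Mb, and 26.3 per Mb just inside the limit, while gene density is 12.6 and 11.4 per Mb.

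The neighbouring 5 Mb, a comparison chosen after this profile was seen, was denser than the distal 5 Mb. From 5 to 10 Mb there were 2429 regions, or 25.6 per Mb (24.6 to 26.6), so that the last 5 Mb had 0.67 times the density of its neighbour (0.62 to 0.71). The last 5 Mb held fewer regions than the 5 to 10 Mb stretch on 16 of 19 autosomes, and the exceptions were chromosomes 7, 10 and 14. The last 1 Mb held fewer than the mean 1 Mb of that stretch on 18 of 19, the exception being chromosome 7, with 12 regions against 10.6 per Mb. On chromosome 9 the last region started 1453 kb before the end, and the last 1 Mb there held 0 regions and 19 protein-coding genes. On the other autosomes the outermost region lay between 102 kb (chromosome 19) and 814 kb (chromosome 3) from the end, within 250 kb on 14. The outermost region of chromosome 19 (chr19:61329531-61330314) had 335 tags at 12.9-fold and that of chromosome 11 (chr11:121973543-121974019) had 87 tags at 53.74-fold. Part of the last 1 Mb is unsequenced telomere end. With each chromosome taken to end at its last annotated gene or region, the last 1 Mb still had 0.43 times the density of the 5 to 10 Mb stretch (0.37 to 0.50), beside 0.38 as first counted.

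At the 5 Mb limit itself the median folds were close on both sides, though the single regions nearest to it differed in fold. The region nearest to the limit inside it (chr19:56432944-56433588, 1.38 kb away) had 356 tags at 6.4-fold, and the nearest outside (chr18:85699415-85700026, 3.22 kb away) had 288 tags at 16.54-fold. The 229 regions in the 500 kb just inside had a median fold of 12.55, and the 201 regions in the 500 kb just outside had 12.19.

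The distal ends differed widely between chromosomes. Distal densities ran from 1.8 regions per Mb on chromosome 18 to 37.4 on chromosome 15 (SD 10.2 over the 19 autosomes). The neighbouring 5 to 10 Mb stretch, of equal length, ran from 10.6 to 44.2 (SD 10.5), a similar SD at a higher level. Relative to their level the distal ends varied more. Their largest density was 20.8 times the smallest, against 4.17 times from 5 to 10 Mb. The distal end was denser than the rest on 10 autosomes and sparser on 9, with a median ratio of 1.02. The counting interval lay above 1 on 9 autosomes, below 1 on 4 and held 1 on 6. Chromosomes are not replicates of the genotypes, and the pooled ratio of 1.19 was 1.11 without chromosome 15 and 1.25 without chromosome 18.

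The autosomes with dense ends supplied most of the members. Chromosome 15 had 187 distal regions, 37.4 per Mb against 14.3 in its rest, a ratio of 2.61 (2.23 to 3.05). Chromosome 5 had 168, at 33.6 per Mb against 17.5 in its rest (1.92, 1.63 to 2.24), and chromosome 11 had 155, at 31 per Mb against 19.2 in its rest (1.62, 1.36 to 1.90). Chromosome 4 had 130, at 26 per Mb against 14.99 in its rest (1.73, 1.44 to 2.07). These 4 chromosomes carried 640 regions, or 39.6% of all distal ones. Chromosome 14, which had the sparsest rest of all autosomes (10.5 per Mb), had 98 distal regions at 19.6 per Mb, a ratio of 1.88 (1.51 to 2.30). Chromosomes 6, 9, 10 and 16 also lay above 1, at 1.28 to 1.55.

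At the other extreme, 4 ends were sparser than their rest beyond counting error. Chromosome 18 had 9 distal regions, 1.8 per Mb against 14.3 in its rest (0.13, 0.06 to 0.24), and chromosome 3 had 14, at 2.8 per Mb against 11.3 in its rest (0.25, 0.13 to 0.42). Chromosome 17 had 34, at 6.8 per Mb against 19.1 in its rest (0.36, 0.25 to 0.50), of which 17 lay in the last 1 Mb, and chromosome 12 had 31, at 6.2 per Mb against 13.6 in its rest (0.46, 0.31 to 0.65). These 4 ends also had the fewest protein-coding genes of all autosomes. Chromosome 17 had 0.8 protein-coding genes per Mb in its last 5 Mb against 12.1 in its rest, chromosome 18 had 1.6 against 6.08, chromosome 3 had 2.6 against 6.38 and chromosome 12 had 3 against 5.92.

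**Figure D2:**
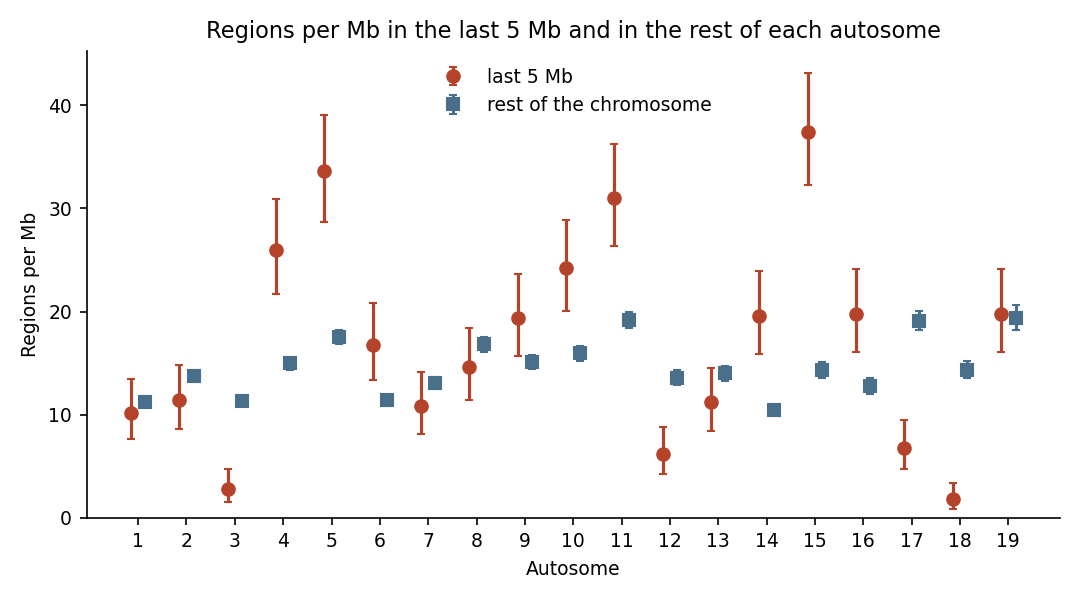
Regions per Mb in the last 5 Mb (red circles) and in the rest (blue squares) of each autosome, with exact Poisson 95% intervals. Distal values range from 1.8 (chromosome 18) to 37.4 (chromosome 15), and the rest, averaged over a longer span of each chromosome, from 10.5 to 19.4.

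**Figure D3:**
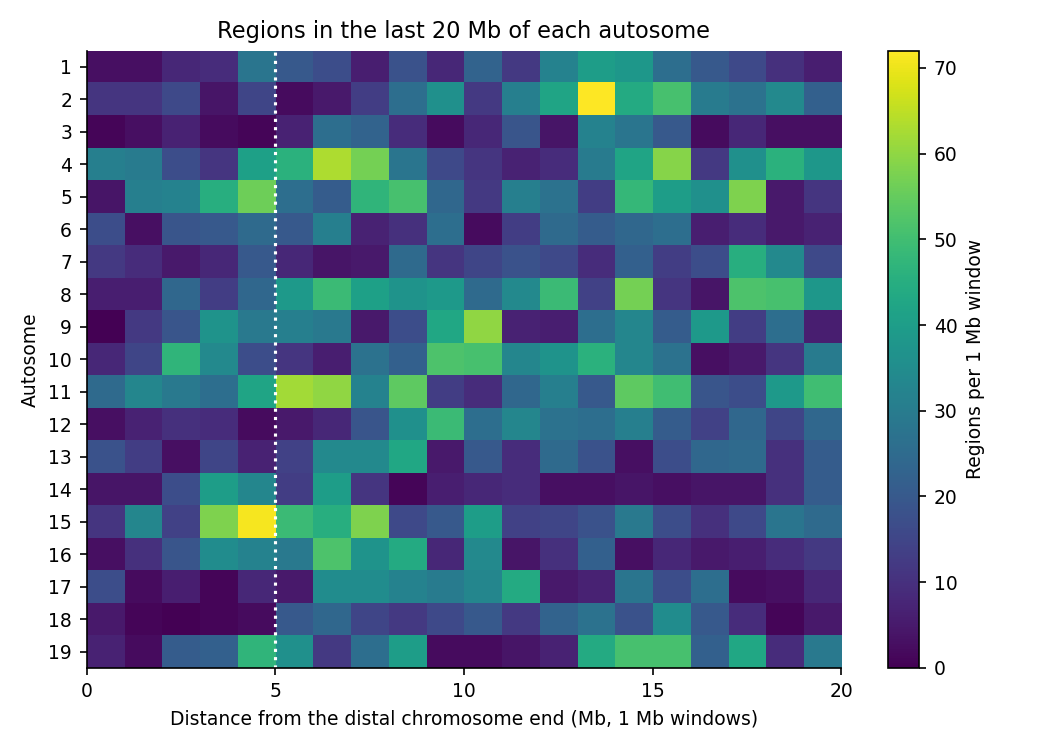
Number of regions in each 1 Mb window of the last 20 Mb of every autosome, with the distal end at the left and the 5 Mb limit as a dotted line. The brightest distal window is the 4 to 5 Mb window of chromosome 15 with 71 regions, and the last 1 Mb of chromosome 9 holds 0.

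Gene density moved with these differences in part. Protein-coding genes were 11.4 per Mb in the last 5 Mb and 8.47 in the rest, a ratio of 1.35 (1.27 to 1.44). Over the 19 autosomes, the distal-to-rest ratio of regions and that of genes had a Spearman rho of 0.61 and a Pearson r of 0.60, given as a description since chromosomes share 1 pair of libraries. Chromosomes 4, 9, 10, 11, 15 and 16 had both ratios above 1, and chromosomes 3, 8, 12, 13, 17 and 18 had both below 1. Chromosomes 1, 2 and 7 had gene-rich ends with ratios of regions from 0.83 to 0.90, each with an interval that held 1. Chromosomes 5, 6, 14 and 19 had the opposite pattern, most clearly chromosome 14 with 4.6 genes per Mb at its end against 7.08 in its rest. Chromosome 6 had a ratio of genes of only 0.99, and chromosome 19 a ratio of regions of only 1.02 (0.82 to 1.26).

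When 1 Mb windows were compared within classes of equal gene number, most of the excess of the last 5 Mb was no longer seen. Windows without a protein-coding gene held 3.2 regions per Mb in the last 5 Mb (5 windows) and 3.95 in the rest, and windows with 1 to 5 genes held 9.94 in the last 5 Mb and 9.60 in the rest. Windows with 6 to 15 genes held 20.7 in the last 5 Mb (32 windows) and 18.4 in the rest, a ratio of 1.12 (1.04 to 1.21). Those with over 15 genes held 25.7 in the last 5 Mb and 24.8 in the rest, a ratio of 1.04 (0.95 to 1.13). With the rates of the rest applied to the distal windows by class, 1514 distal regions resulted, so that the 1617 listed were 1.07 times this number (1.02 to 1.12), and 1.02 times without chromosome 5 (0.97 to 1.08). Its interval also held 1 without chromosome 11, 14 or 15, each left out alone. By zone, the last 1 Mb held 0.59 times the number given by gene classes beyond 10 Mb (0.51 to 0.68), the stretch from 1 to 5 Mb 1.24 times (1.18 to 1.31), and that from 5 to 10 Mb 1.72 times (1.65 to 1.79). The median promoter window held 11 CpG in the last 1 Mb, 18 from 1 to 5 Mb, 16 from 5 to 10 Mb and 13 beyond, and the part of promoter CpG content in the density was not tested.

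**Figure D4:**
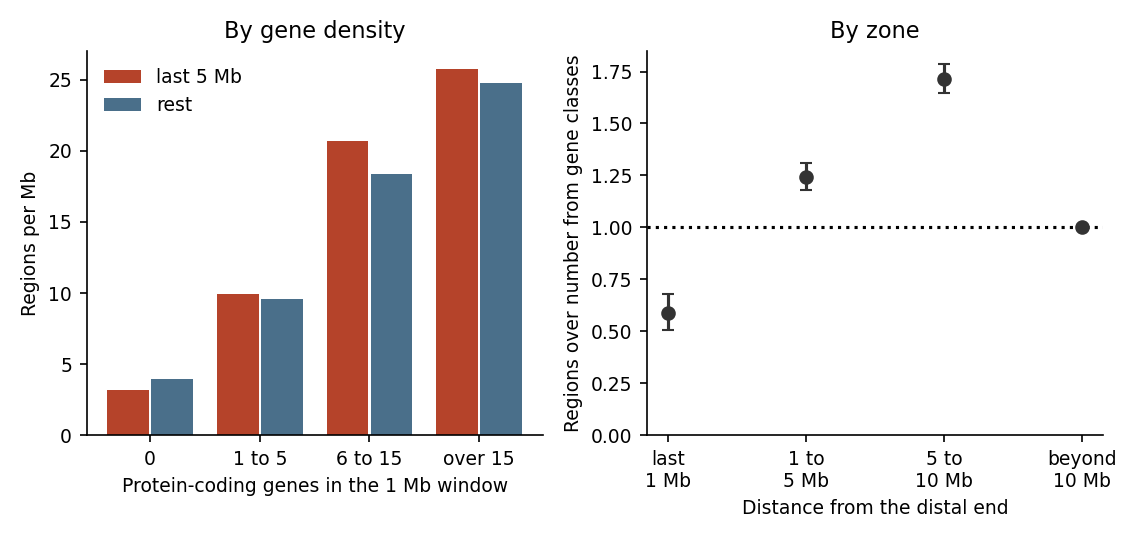
Left, regions per Mb in 1 Mb windows of the last 5 Mb (red) and of the rest (blue), by protein-coding genes per window; right, regions listed over the number given by the gene classes of windows beyond 10 Mb, with Poisson 95% intervals and a dotted line at 1. The classes differ little between last 5 Mb and rest, 25.7 in the last 5 Mb and 24.8 in the rest for the densest class, while the zones run from 0.59 (last 1 Mb) to 1.72 (5 to 10 Mb); the value beyond 10 Mb is 1 by construction.

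Taken over the whole last 5 Mb, single regions had much the same size and fold as those elsewhere, but the median fold was higher in the last 1 Mb. Distal regions had a median length of 490 bp (quartiles 397 and 586) and a median of 108 Control tags (65 and 185), against 477 bp (383 and 572) and 104 tags (60 and 176) in the rest. The median fold was 12.28 (8.78 and 18.54) at the distal ends and 12.08 (8.51 and 18.03) in the rest, a difference of 0.20 (-0.12 to 0.56, from the exact interval of the distal median). In the last 1 Mb the median fold was 13.89 (interval 12.23 to 15.53), with a median of 94 tags. Beyond 10 Mb it was 12.05 (interval 11.95 to 12.13), with a median of 103 tags. Folds of 20 or more belonged to 354 distal regions (21.9%, 19.9 to 23.97) and to 20.9% of the rest, beside 21.0% over all autosomes. Values of FDR up to 5% belonged to 960 distal regions (59.4%, 56.96 to 61.7) and to 57.2% of the rest, beside 57.3% over all autosomes. An FDR of 100% was less common in distal regions, at 13.98% against 16.2%, a difference of -2.22 percentage points (-3.88 to -0.40). Distal tag counts ran from 11 to 660.

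**Figure D5:**
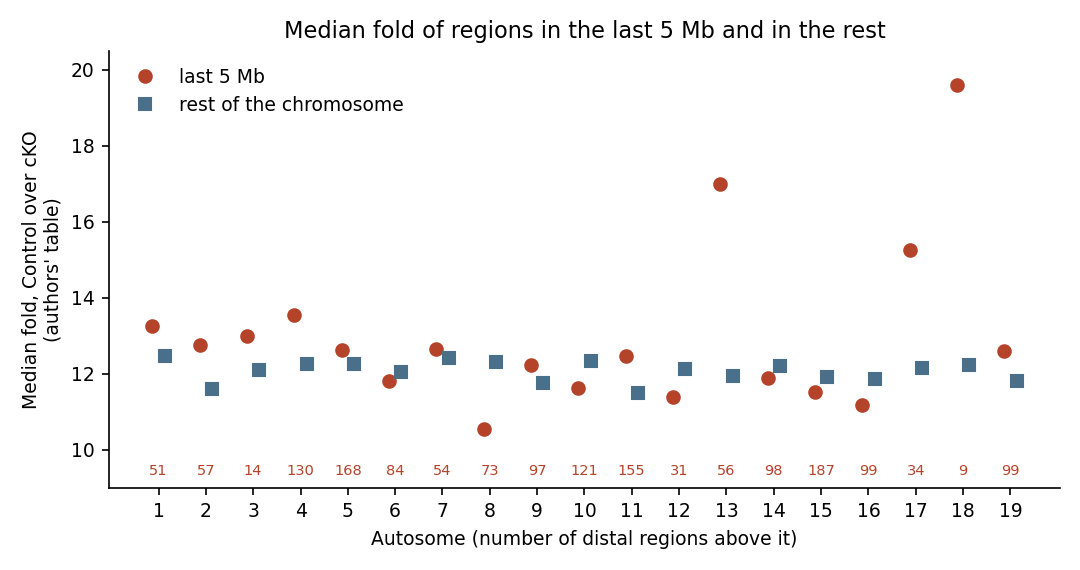
Median fold of regions in the last 5 Mb (red circles) and in the rest (blue squares) of each autosome, with the number of distal regions printed above the axis, which starts at 9. Distal medians lie between 10.55 (chromosome 8) and 19.6 (chromosome 18, 9 regions), rest medians between 11.485 and 12.46.

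By chromosome the median fold was higher at the distal end on 12 autosomes and lower on 7. Chromosome 13 stood out, with a distal median of 16.995 over 56 regions against 11.9 in its rest, and a median of 78 distal tags against 103. Chromosome 17 had 15.3 over 34 regions against 12.2, and chromosome 18 had 19.6 over 9 regions against 12.2. Chromosome 8 had the lowest distal median, 10.6 over 73 regions against 12.3. The 5 distal regions with the most tags lay in Lima1 (660 tags, 8.92-fold), Spats2 (641 tags, 9.69-fold), outside protein-coding genes on chromosome 2 (583 tags, 12.3-fold), in Mafg, which encodes a small Maf transcription factor (551 tags, 25.06-fold), and in Farp1 (536 tags, 11.87-fold).

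Distal regions lay in protein-coding genes somewhat more often than others. The summit fell in such a gene for 958 distal regions (59.2%, 56.8 to 61.6) and for 55.7% of the rest, a difference of 3.56 percentage points (1.09 to 5.99). Without chromosome 15 it was 2.13 (-0.50 to 4.73). Protein-coding genes covered 44.3% of the distal sequence and 40.7% of the rest. Relative to this cover, regions were 1.83 times as dense within genes as outside them at the distal ends (1.65 to 2.02) and 1.83 times in the rest (1.79 to 1.87). A summit within 1 kb of a gene end was found for 90 distal regions (5.57%) and for 4.60% of the rest, a difference of 0.96 percentage points (-0.08 to 2.21). In the last 1 Mb the summit lay in a protein-coding gene for 46.2%.

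Of 1087 distal protein-coding genes, 398 overlapped a region (36.6%, 33.8 to 39.5), against 39.7% in the rest and 39.5% over all autosomes. The difference was -3.06 percentage points (-5.95 to -0.07), and without chromosome 10 it was -0.49. Its interval held 0 in 8 of the 19 omissions of 1 autosome, without chromosome 2, 3, 4, 7, 9, 10, 12 or 18. Distal genes were shorter, with a median of 14.3 kb against 17.7 kb. Among genes up to 10 kb, the largest class, 9.87% of distal ones had a region against 10.2% of the rest, and among those over 100 kb it was 87.5% against 85.7%. Among genes of 10 to 30 kb, 46.6% of distal ones had a region (41.2 to 52.04) against 38.03% of the rest, and among those of 30 to 100 kb it was 55.0% (48.5 to 61.3) against 63.4%. The share fell to 23.8% of 240 genes in the last 1 Mb (18.8 to 29.5), against 50.6% of 897 genes from 5 to 10 Mb (47.3 to 53.9).

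The 10 largest folds at chromosome ends belonged to regions of 47 to 111 tags, mostly below the distal median of 108. Ythdf1, which encodes a protein that binds methylated adenosine in RNA, had the largest fold, 112.06, with 70 tags at an annotated gene end (chr2:180904318-180904679, 1.21 Mb from the end). Mtus2, which encodes a microtubule-associated protein, followed with 102.1-fold and 111 tags (chr5:148233629-148234125). Farp1, which encodes a FERM-domain exchange factor for small GTPases, had 88.99-fold with 78 tags (chr14:121189599-121190021). Kcnab2, a beta subunit of voltage-gated potassium channels, had 79.1-fold with 69 tags (chr4:152433378-152433770). Hoxc9, a homeobox gene of the body axis, had 66.27-fold with 72 tags (chr15:102984260-102984626). The other 5 of the 10 largest folds overlapped no named protein-coding gene. They lay 16.3 kb from Stard13 (85.69-fold), 18.5 kb from Pds5b (80.26-fold), 10.4 kb from Rab40b (74.64-fold), 33.6 kb from Polr3k (73.37-fold) and 1.68 kb from Olfr247 (65.92-fold). All 10 had an FDR of at most 0.06%. The fold depends on the cKO background in its denominator, so it does not rank the amount of DNA methylation.

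The genes with the most distal regions lay mostly on chromosomes 14, 15 and 19. Farp1, Dock9 (an activator of the GTPase Cdc42) and Dip2b had 15 each, of which 8 each had an FDR of at most 5%. Prdm16, a zinc finger regulator of brown fat and muscle fate on chromosome 4, had 13 at 7.59-fold to 38.29-fold, 8 of them with an FDR of at most 5%. The largest Prdm16 fold had 17 tags and an FDR of 86.56%. Lima1, an actin-binding LIM protein, had 13, with tag counts from 31 to 660, and Spats2, in the same 1 Mb window, had 13, with 14 to 641. Ablim1, another actin-binding LIM protein, Atrnl1 and Hlcs, the enzyme that attaches biotin to carboxylases, had 12 each, and Mtus2 had 11. The gene with the most distal regions on each autosome, with ties broken by fold, had between 1 and 15. Farp1, Dip2b, Prdm16, Ablim1, Hlcs and Mtus2 led on chromosomes 14, 15, 4, 19, 16 and 5. Ulk4 led on chromosome 9 with 11, Pard3, a cell polarity gene, on chromosome 8 with 10, and Ptprn2 on chromosome 12 with 9. Septin9, a filament-forming GTPase, led on chromosome 11 with 8. Nnt, the mitochondrial transhydrogenase, led on chromosome 13 with 6, all with an FDR of at most 5% and at 12.3-fold to 26.14-fold. Ppp2r5a and the calcium channel gene Itpr2 led on chromosomes 1 and 6 with 5 each, and none of the Itpr2 regions had an FDR of at most 5%. R3hdm2 led on chromosome 10 with 4, Cdh4 and Ap2a2 on chromosomes 2 and 7 with 3 each, Lrrc7 on chromosome 3 with 2, and Dok6 on chromosome 18 with 1 (27.7-fold, 112 tags). These counts were not scaled by gene length. Protein-coding genes of the distal ends held 22.8 regions per Mb of their sequence. Atrnl1 had its 12 in 522 kb, Pard3 10 in 549 kb, Ptprn2 9 in 792 kb and Cdh4 3 in 457 kb. By contrast, the 13 of Spats2 lay in 87.3 kb and the 13 of Lima1 in 97.0 kb.

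Relative to gene length, Letmd1 was densest among genes with at least 4 distal regions, with 4 in 16.8 kb (0.24 per kb). Setd4, a SET-domain methyltransferase gene, had 5 (0.23 per kb), Dclre1a, a DNA crosslink repair gene, had 4 (0.21), Nol9 had 4 (0.18) and Lnx2, a ubiquitin ligase gene, had 10 (0.17). The Letmd1 regions carried 136, 153, 181 and 18 tags at 47.46, 9.56, 13.53 and 13.18-fold in chromosome order. The first 3 had an FDR of at most 0.02% and the last 100%.

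Distal regions were unevenly spread between windows. Of the 95 distal 1 Mb windows, 19 (20%) held more than 30 regions, against 261 of 2302 (11.3%) in the rest, and these 19 held 778 regions, or 48.1% of the distal ones. Full windows were not particular to the distal ends. In the 5 to 10 Mb stretch the fullest window of each 1 Mb step held 52 to 63, against 31 to 71 in the last 5 Mb. The mean there was 25.6 regions per Mb against 17.02. Windows without a region numbered 2 of 95 at the distal ends (2.11%) and 22 of 2302 in the rest (0.956%). The densest (chr15:99043686-100043685) held 71, of which 13 overlapped Spats2 and 13 Lima1. Its neighbour (chr15:100043686-101043685) held 58, of which 15 overlapped Dip2b and 9 Scn8a, a voltage-gated sodium channel gene. A window on chromosome 5 (chr5:146834685-147834684) held 56, with 10 in Lnx2 and 9 in Flt1. The median gap between neighbouring regions was 22.7 kb at the distal ends and 27.0 kb in the rest.

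Lists of genes with known roles were set beside the 36.6% of all distal protein-coding genes that overlapped a region. Of 15 cartilage and growth plate genes in the distal windows, 5 overlapped a region (33.3%) and Ctnnb1, which encodes beta-catenin, had one 2.51 kb away (8.87-fold). Flt1, a receptor for vascular endothelial growth factor, had 9 regions, 7 of them with an FDR of at most 5%, with 72 to 280 tags and 7.32-fold to 24.59-fold. Gli1, a transcription factor and target of hedgehog signalling, had 1 at 48.19-fold with 42 tags, and Ccnd1, which encodes cyclin D1, had 1 near an annotated end at 12.72-fold with 171 tags. Sp7, an osteoblast transcription factor, had 1 at 11.51-fold with an FDR of 49.04%, and Rarg, a retinoic acid receptor, had 1 at 9.29-fold. Pthlh, which encodes the growth plate signal PTHrP, had none within 5 kb, and neither had Col9a3, Kl, Igf2, Cdkn1c, Nrp1, Itgb1, Cdk4 and Ddit3. The median of the largest folds over the 5 genes was 12.7, beside 16.01 over all distal genes with a region.

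The BMP and TGF-beta family had 7 distal members, of which 3 overlapped a region (42.9%). Acvrl1, a type I receptor, had 3 (121, 75 and 296 tags at 11.8, 7.53 and 11.51-fold in chromosome order), Ski, a repressor of Smad signalling, had 4, of which the 2 with an FDR of at most 5% were at 15.98 and 7.71-fold and the largest fold, 29.66, had 21 tags and an FDR of 51.06%, and Amhr2, the receptor for anti-Mullerian hormone, had 1 at 11.58-fold with 381 tags. The Acvrl1 region of 75 tags had an FDR of 61.98%. Acvr1b had a region 0.275 kb away with an FDR of 8.55%, and Inhbe, Inhbc and Gdf11 had none within 5 kb. The median of the largest folds was 11.8.

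Of 20 imprinted genes and neighbours, all on distal chromosome 7, 5 overlapped a region (25%). Kcnq1, a potassium channel gene, had 3 regions with 167, 84 and 130 tags at 13.15, 9.34 and 12.51-fold. The Kcnq1 region of 84 tags had an FDR of 34.95%. Slc22a18 had 1 at 15.33-fold, Tnfrsf23 1 at 13.72-fold with 248 tags, Ano1 1 at 10.41-fold, and Nap1l4 1 at 17.94-fold with 13 tags and an FDR of 100%. H19, Igf2 and Ins2, which share the insulin-like growth factor domain, had none within 5 kb, and neither had Kcnq1ot1, Cdkn1c, Phlda2, Ascl2, Cd81 and the remaining 7. The median of the largest folds was 13.7.

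Developmental and chromatin regulators gave a mixed picture. Of 17 homeobox and axial patterning genes, 3 overlapped a region (17.6%): Hoxc9, Hoxc6 (39.55-fold, 34 tags) and Emx2 (30.35-fold, 49 tags), each with 1 region and an FDR of at most 1.61%. Hoxc5 lay 1.95 kb from the Hoxc6 region, whereas Hoxc4, Hoxc8 and Hoxc10 to Hoxc13 had none within 5 kb. Their median of 39.6 rests on regions of 34 to 72 tags. Of 4 Polycomb and heterochromatin genes, 3 overlapped a region: Cbx2, a Polycomb reader, with 278 tags at 25.23-fold, Cbx8 with 193 and 76 tags at 12.71 and 6.27-fold, and Cbx5, the heterochromatin protein HP1 alpha, with 2 at up to 10.9-fold. The Cbx8 region of 76 tags had an FDR of 100%. Of 2 telomere maintenance genes, Rtel1, a helicase, had 1 region (335 tags, 10.97-fold) and Zbtb48 had none. Of 6 genes listed with the FGF family, Kl among them, only Fgf14 had regions, 3 at 17.81-fold to 33.32-fold. The one at 17.81-fold had 17 tags and an FDR of 100%. Of 9 genes listed with integrins and laminins, Agrn and Itgbl1 among them, 2 overlapped a region. These were Itga7 (15.66-fold) and Itga5 (9.84-fold), both with an FDR above 5%. Itgb7 had one 4.4 kb away with an FDR of 31.64%.

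Gene families that lie in tandem clusters were counted in the same way. None of 68 distal olfactory receptor genes, 58 of them on chromosome 10, overlapped a region, and 3 had one within 5 kb, against 46.3% of all distal protein-coding genes and 49.0% over all autosomes. Those 3 were Olfr247, Olfr819 (56.03-fold) and Olfr785 (31.44-fold). Olfactory receptor genes are short, and of all distal genes up to 10 kb 9.87% overlapped a region. Of 24 keratin genes in the type II cluster on chromosome 15, 6 overlapped a region (25%), among them Krt7, a keratin of simple epithelia (15.65-fold, 168 tags), Krt84 (15.03-fold), Krt83 (14.81-fold), Krt2 (11.77-fold) and Krt8 (11.46-fold), all with an FDR of at most 2.9%. Of 14 genes listed with chemokine and complement receptors, Cd34 among them, Cx3cr1, the fractalkine receptor, had 1 region (32.96-fold, 28 tags, FDR 10.63%). Ccr8 had one 0.596 kb away with an FDR of 27.2%. Of 16 zinc finger genes named Zfp, 8 overlapped a region (50%), led by Zfp941 with 228 tags at 43.76-fold, Zfp750 (30.06-fold, 21 tags, FDR 54.8%, a region it shares with Tbcd) and Zfp512b (15.8-fold, 327 tags). Zfp941 and Zfp512b had an FDR of at most 5%, whereas the regions of Zfp131 and Zfp651, next by fold, had an FDR of 100%. The median of the largest folds over the 8 genes was 7.92, below that of all distal genes with a region.

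Of 57 distal miRNA hairpins in RefSeq, 2 lay under a region (3.51%), against 14 of 862 in the rest (1.62%) and 1.74% over all autosomes, too few to compare. Mir7006 lay within the Zfp512b region of 327 tags at 15.8-fold, and Mir6933 within a region on chromosome 11 of 312 tags at 32.23-fold.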

How the data were processed

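MBD2-captured DNA of 1 cKO and 1 Control library was sequenced. Per the file headers, MACS 1.4.2 was run by the authors at p 1e-10 on Control tags with cKO tags as background, keeping at most 1 tag per position and scaling the larger library towards the smaller. The submitters' processing notes name mm10 as the build. The sources used here name no aligner and no rule for reads matching several places. The deposited values are tag counts (Control tags, unscaled), a score (minus 10 times the log10 of the authors' p), a fold ratio and an FDR in percent, all from the authors' caller. Region lengths and summit offsets, in bp, were deposited with them.

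Regions were placed by their start against the chromosome lengths of the mm10 assembly, which were entered by hand and not taken from the deposited files, and genes by their midpoint, from the RefSeq table of GRCm38.p6 (20665 protein-coding genes on 19 autosomes). Densities carry exact Poisson intervals, ratios exact conditional binomial intervals, shares Wilson intervals, and differences of shares Newcombe intervals built from these, at 95%. No genotype test is possible with 1 library per group. Code was tested on simulated data. Tag counts of 11 to 660 limit the precision of each distal region.

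Named genes were those overlapping the 10 largest folds with an FDR of at most 5%, the 10 with most distal regions, the leader of each autosome, the 5 densest with at least 4 regions, up to 5 members of each list, and, for sequences, up to 6 promoters. Models named Gm, Rik or LOC were not named. The members and lists were chosen with earlier results of these data known, many list genes because of their position. Alternatives were other limits (2 and 10 Mb), chromosome ends, summits, stricter p or FDR, joined regions, gene windows and each autosome left out. The 0 to 1, 1 to 5 and 5 to 10 Mb zones, the genes with the most regions in dense windows and in the last 1 Mb, and the regions with most tags were chosen after their values were seen. Versions were SciPy 1.17.1, pandas 2.3.3, NumPy 2.4.6, Matplotlib 3.10.9 and Python 3.11.15. Promoter sequences of chromosome 18 were not used here, and some genes that the rule names are not reported here.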

Additional observations from a re-analysis of the deposited data

How the results depend on the processing

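The choice of 5 Mb decided the direction of the main comparison. Set to the last 2 Mb, the ratio of regions per Mb, distal over rest, was 0.753 (10.9 against 14.5 per Mb) and 4 autosomes had a denser end. The ratio was then 0.667 with gene classes. The shares of summits in protein-coding genes differed by -0.0507 points and the shares of genes with a region by -13.2 points. The shares with a fold of at least 20 differed by 4.21 points (0.248 to 8.62) and the median folds by 0.785 (0.02 to 1.77). Set to the last 10 Mb, the ratio was 1.54, with gene classes 1.404, 15 autosomes had a denser end, and the shares of genes with a region differed by 3.797 points in the other direction. With the last 1 Mb left out, an alternative chosen after seeing the data, the ratio was 1.32.

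Placing regions by summit, ending chromosomes at the last gene or region, stricter p, FDR values up to 5%, joining regions and counting the unsequenced 3 Mb left the ratio of regions per Mb between 1.19 and 1.24 and the number of denser autosomes between 9 and 11. The ratio of the last 1 Mb to the 5 to 10 Mb stretch lay between 0.356 and 0.432 under the alternatives run for it. With each autosome left out in turn, the ratio ranged from 1.11 (without chromosome 15) to 1.25 (without chromosome 18), and with gene classes from 1.02 to 1.10. Over the same 19 omissions the number of denser autosomes was 9 or 10, the last 1 Mb had 0.349 to 0.405 times the density of the 5 to 10 Mb stretch, and the difference of median folds was 0.14 to 0.36. Shares differed by 0.828 to 3.03 points for an FDR of at most 5%, 0.278 to 1.82 for a fold of at least 20, 2.13 to 4.76 for summits in genes and -4.13 to -0.487 for genes with a region, and the interval of the last held 0 in 8 of them. It also held 0 with p of at most 1e-15 (-5.09 to 0.692) or 1e-20 (-4.76 to 0.902), with FDR values up to 5% (-3.61 to 1.90) and within 5 kb (-5.92 to 0.160). The interval for summits in genes held 0 without chromosome 15, with p of at most 1e-20 (-0.111 to 5.62) and in the last 2 Mb. No paired analysis was possible because each genotype has 1 library. The cause of these shifts was not tested.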

Other observations

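Some genes lay close to the telomere and still held several regions; they were chosen after their values were seen. Tbcd, a tubulin folding cofactor on chromosome 11 at 0.548 Mb from the end, had 5 regions with 21 to 223 tags at 6.81-fold to 30.06-fold, of which 3 had an FDR of at most 5%. The largest Tbcd fold had 21 tags and an FDR of 54.8%. Foxk2, a forkhead transcription factor gene on the same chromosome, had 4 at 15.51-fold to 23.5-fold, of which 3 had an FDR of at most 5%. The largest Foxk2 fold had 20 tags and an FDR of 100%. Perm1, a regulator of muscle metabolism on chromosome 4 at 0.296 Mb from the end, had 3, all with an FDR of at most 5% and 166 to 246 tags. Bicd1, a dynein adaptor gene on chromosome 6 at 0.250 Mb from the end, had 3 at 14.73-fold to 32.96-fold, 2 of them with an FDR of at most 5%. The largest Bicd1 fold had 14 tags and an FDR of 100%. Chromosomes 4 and 11 had 31 and 25 regions in the last 1 Mb, against a median of 7 over the 19 autosomes.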
